A study of Homo sapiens with 12 samples.

Results

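The 10 genes followed here encode the nuclear receptors and coactivators of metabolic cardiomyocyte maturation: PPARGC1A, PPARGC1B, PPARA, PPARD, ESRRA, ESRRG, RXRA, THRA, THRB and NR3C1. They were chosen by name, all 10 were found among the 60583 gene names of the count table, and all 10 were among the 21298 genes with enough counts to be tested. The cells were cardiomyocytes derived from RUES2, an established human embryonic stem cell line of wild-type genotype, kept in RPMI medium with B27 and insulin. From day 50 they spent 3 days on an electrospun scaffold of 9.75% PEDOT:PSS/PVA, a blend with the polymer PEDOT:PSS that conducts and is called PEDOT here, or of 8% polyvinyl alcohol (PVA), which does not conduct. Ribodepleted total RNA was sequenced as 6 libraries a scaffold, 2 technical ones from each of 3 biological replicates. B27 is a supplement whose published formula includes triiodothyronine and corticosterone, ligands of the thyroid hormone and glucocorticoid receptors, and cells on both scaffolds received it. The series asks whether a conductive scaffold changes cardiac gene expression.

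Nuclear receptors are transcription factors whose activity small lipophilic ligands or coactivators set. PPARGC1A and PPARGC1B encode the coactivators PGC-1alpha and PGC-1beta, which bind no DNA by themselves and drive mitochondrial genes through the estrogen-related receptors (ESRRA, ESRRG) and the fatty acid-sensing receptors (PPARA, PPARD). RXRA encodes the retinoid X receptor alpha, the dimer partner of the PPAR and thyroid hormone receptors. In the heart several of these factors rise around birth, when cardiomyocytes turn from glucose to fatty acids as fuel. Thyroid hormone (through THRA and THRB) and glucocorticoids (through NR3C1) are known to promote that maturation.

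Library totals were 19.12 to 30.95 M counts of read pairs (median 24.06 M), and the technical libraries of a replicate were summed to 6 sums of 44.49 to 57.49 M. Between technical libraries the chi-square per gene was 5.32 to 12.9, above sampling noise, so none was a library deposited again. A single library held 537 to 4514 counts of each of the 10 genes. Cardiomyocyte markers were high in every sum, at a summed 66980 to 88490 CPM (each library's counts scaled to a common total) on PEDOT and 58930 to 79230 CPM on PVA for 9 genes. Leukocyte markers summed to at most 0.239 CPM on PEDOT and 0.282 CPM on PVA, and pluripotency markers to at most 0.560 CPM on PEDOT and 0.233 CPM on PVA. CD68 among the leukocyte markers is undercounted, since 81.6% of its exon bases are shared with another gene name on the same strand.

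The 10 genes have 27 promoter windows in RefSeq (GRCh38.p14), each of 250 bases before to 50 after a start, and 4 of them have a single window. The single windows of PPARD and ESRRA are shown because these genes differed in opposite directions between replicate numbers, and 1 of the 2 windows of THRB because THRB varied most. They are at chr6:35342308-35342607 on the + strand, chr11:64305274-64305573 on the + strand and chr3:24495659-24495958 on the - strand. Capitals mark the GC box, GGGCGG on either strand, the letters that Sp1-type factors bind.
PPARD: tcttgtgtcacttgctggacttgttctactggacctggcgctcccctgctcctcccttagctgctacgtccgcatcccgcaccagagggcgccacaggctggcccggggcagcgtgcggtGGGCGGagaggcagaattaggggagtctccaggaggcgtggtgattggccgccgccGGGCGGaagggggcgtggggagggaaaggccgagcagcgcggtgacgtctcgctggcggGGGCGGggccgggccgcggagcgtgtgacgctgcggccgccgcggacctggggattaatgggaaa
ESRRA: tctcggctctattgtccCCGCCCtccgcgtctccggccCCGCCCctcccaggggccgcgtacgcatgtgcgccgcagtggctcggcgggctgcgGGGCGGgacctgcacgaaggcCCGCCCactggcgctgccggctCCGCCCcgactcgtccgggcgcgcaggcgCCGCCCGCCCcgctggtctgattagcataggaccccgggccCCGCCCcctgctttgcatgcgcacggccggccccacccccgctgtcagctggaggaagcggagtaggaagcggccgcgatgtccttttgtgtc
THRB: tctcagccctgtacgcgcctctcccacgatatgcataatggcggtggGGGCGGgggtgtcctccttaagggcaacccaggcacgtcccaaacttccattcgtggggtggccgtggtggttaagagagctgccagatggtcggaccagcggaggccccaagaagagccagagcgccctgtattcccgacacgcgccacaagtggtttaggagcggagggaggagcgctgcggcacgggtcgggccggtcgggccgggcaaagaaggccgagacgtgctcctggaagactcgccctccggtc
The PPARD window held 3 matches, the ESRRA window 8, of which a pair overlap, and the THRB window 1. GC boxes stood in 16 of the 27 windows, from 9 of the 10 genes, and in 45% of 35116 windows of all genes. The nuclear receptor core AGGTCA was found in 2 windows, both of ESRRG, and in 13.8% of all windows. No window of the 10 genes held the estrogen-related receptor element TNAAGGTCA (0.951% of all windows), the direct repeat of AGGTCA with a single base between that PPAR dimers bind (0.0228%), the repeat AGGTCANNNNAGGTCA of thyroid hormone receptor dimers (0.0199%), the glucocorticoid element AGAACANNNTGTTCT (0.00285%) or the cyclic AMP element TGACGTCA (1.85%). A match is only a match of letters. PPARGC1A has a second window 568767 bases outside the span over which its reads were counted, so transcripts from that start would be counted only over the exons they share.

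The counted exons covered 3105 to 13219 bases per gene, and levels are compared between genes only per length, as RPKM (CPM per kilobase of those exons). PPARD averaged 17.8 ± 2.74 RPKM on PEDOT and 19.6 ± 1.58 RPKM on PVA, and ESRRA 18.8 ± 1.46 RPKM on PEDOT and 16.9 ± 3.18 RPKM on PVA (SD, n = 3 each). THRA followed at 16.9 ± 0.582 RPKM on PEDOT and 17.7 ± 2.35 RPKM on PVA, so PPARD, ESRRA and THRA shared the top of the order: PPARD lay above ESRRA in 3 of 6 sums and ESRRA above THRA in 4 of 6. NR3C1 averaged 14.4 ± 2.17 RPKM on PEDOT and 13.7 ± 0.904 RPKM on PVA, and PPARGC1A 13.4 ± 0.636 RPKM on PEDOT and 13.1 ± 1.32 RPKM on PVA. They could not be ranked against each other either, with NR3C1 higher in 4 of 6 sums. The levels of PPARGC1B (10.9 ± 0.659 RPKM on PEDOT and 9.93 ± 0.804 on PVA) and ESRRG (8.45 ± 1.06 on PEDOT and 8.45 ± 1.29 on PVA) were next. Below them came PPARA (6.69 ± 0.180 RPKM on PEDOT and 6.07 ± 0.575 on PVA), RXRA (5.41 ± 0.805 on PEDOT and 5.54 ± 0.546 on PVA) and THRB (3.48 ± 0.783 on PEDOT and 3.60 ± 0.994 on PVA). THRA lay above NR3C1 in 6 of 6 sums with no overlap. From PPARGC1A down, PPARGC1B, ESRRG, PPARA, RXRA and THRB kept their order in 6 of 6 sums, and the ranges did not overlap between ESRRG and PPARA or between RXRA and THRB. The highest, PPARD, stood at percentile 91.1 of the genes tested and THRB, the lowest, at percentile 59.2. Of each pair of paralogues, PPARD was thus above PPARA, ESRRA above ESRRG, THRA above THRB and PPARGC1A above PPARGC1B in level per length in all 6 sums. The first 2 of these orders depend on the exon lengths. In mean CPM, without the length, ESRRG (92.4) was above ESRRA (55.4), and PPARA (84.3) and PPARD (83.4) were close.

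**Figure D1:**
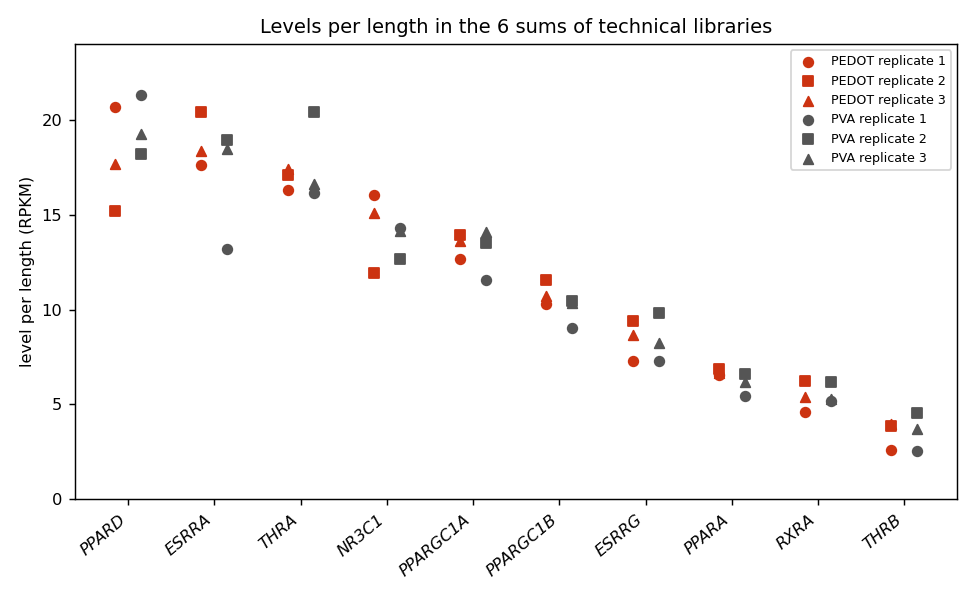
Level per length (RPKM, linear axis) of the 10 genes in the 6 sums of technical libraries, ordered by their mean, with PEDOT sums in red left of PVA sums in grey and marker shapes for the replicate number. PPARD, ESRRA and THRA overlap at the top, and THRB lies lowest, at 2.55 to 4.53 RPKM.

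On the scaffold, none of the 10 genes passed edgeR's quasi-likelihood test, with 0 called higher and 0 lower on PEDOT, and 0% of all genes tested were called (190 of 21298, or 0.892%, had an unadjusted p under 0.05, and none of the 10). DESeq2 and limma-voom also called 0 of the 10. Because the replicate numbers separate the samples, a paired fit, blocked on that number, was read beside it and called 0 of the 10 and 57 of all genes, which is 0.268%. In that paired fit PPARA was the only one of the 10 with an unadjusted p under 0.05, as 8.32% of all genes had in either direction and 3.93% with higher levels on PEDOT. The scaffolds were fully separated in none of the 10 genes, and in 4.6% of all genes. PPARGC1B and PPARA were higher and PPARD lower on PEDOT in 3 of 3 same-numbered pairs, which is 3 of 10 genes against 28.9% of all genes with a shared direction. The median log2 fold change of the 10 genes was 0.02 with or without the block, beside -0.006 without it and -0.004 with it for all genes tested. The labels do not say that replicates are separate differentiations, so p-values measure the spread between these samples, which may be technical. A p over the threshold does not show that the scaffolds are alike. The paired 95% intervals of all 10 genes lay between -0.28 and 0.34 on the log2 scale.

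**Figure D2:**
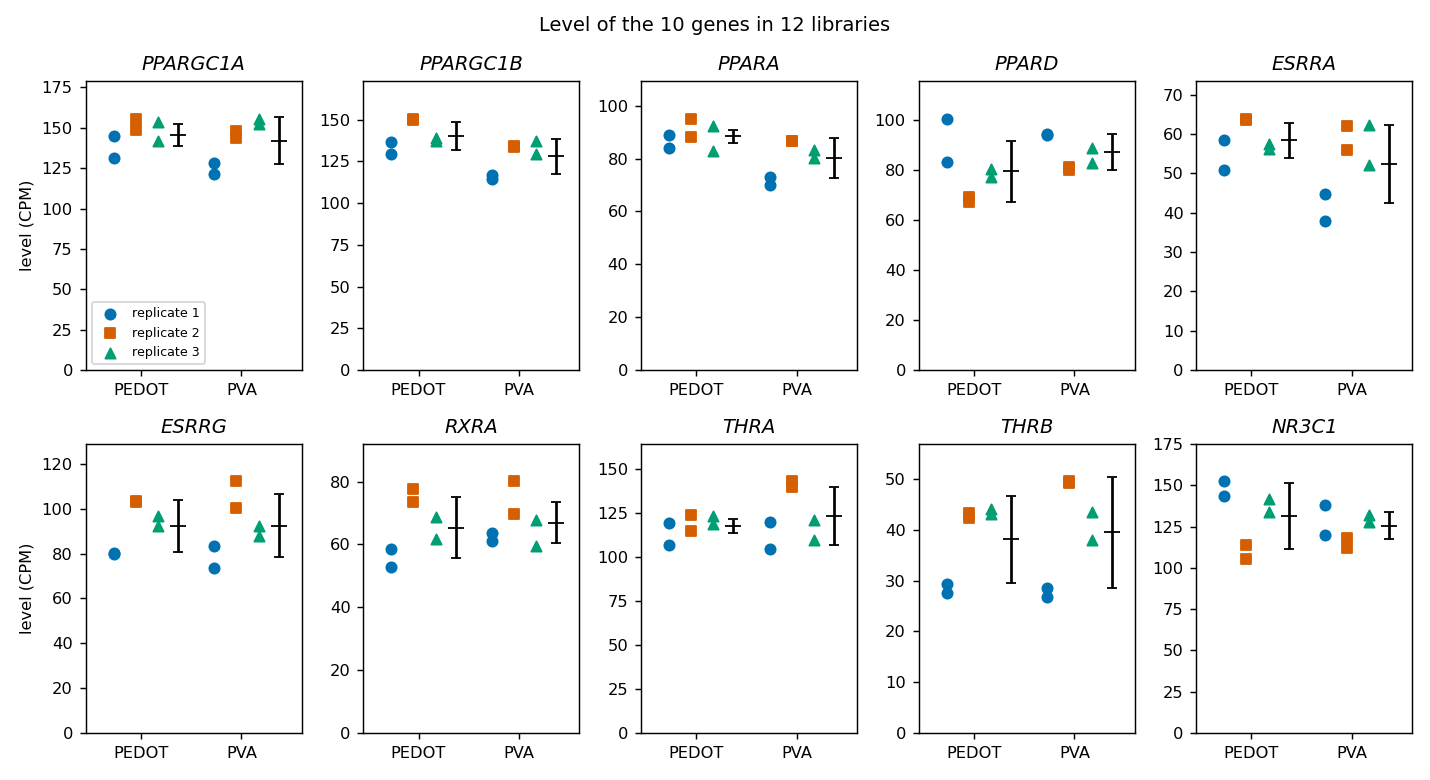
Level (CPM, linear axis from 0) of each gene in the 12 libraries, PEDOT left of PVA, with colours and shapes for the replicate number and black bars for the mean ± SD of the 3 sums of a scaffold. The scaffolds overlap in all 10 panels, while the THRB libraries of replicate 1 sit at 26.8 to 29.3 CPM, below all others.

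Of the coactivators, PPARGC1A (chromosome 4, 23755041 to 23904089, - strand, hg38) encodes the inducible PGC-1alpha. It was at 138, 151 and 148 CPM in PEDOT replicates 1, 2 and 3, against 126, 147 and 153 CPM in PVA replicates 1, 2 and 3. PVA replicate 1 was lowest and the scaffolds overlapped, with a paired log2 difference of 0.04 ± 0.06 (SE, adjusted p 0.931 by edgeR). PPARGC1B (chromosome 5, 149730298 to 149855022, + strand), the gene of PGC-1beta, was at 133, 149 and 138 CPM on PEDOT, against 116, 135 and 133 CPM on PVA. Each PEDOT sum was above the same-numbered PVA sum, by 0.19, 0.15 and 0.05 on the log2 scale, but PEDOT replicate 1 was below PVA replicate 2. The paired log2 difference of PPARGC1B was 0.13 ± 0.06 (SE, adjusted p 0.621 by edgeR).

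PPARA (chromosome 22, 46150521 to 46243756, + strand), the receptor that drives fatty acid oxidation genes in heart and liver, was at 86.4, 91.0 and 87.7 CPM on PEDOT, against 72.1, 87.1 and 81.7 CPM on PVA. The PEDOT sums were close together and PVA replicate 1 was low. PPARA had a paired log2 difference of 0.14 ± 0.07 (SE, adjusted p 0.595 by edgeR), with pair differences of 0.26, 0.06 and 0.10. PPARD (chromosome 6, 35342558 to 35428191, + strand), the broadly expressed receptor of the family, was at 92.1, 67.7 and 78.8 CPM on PEDOT, against 94.9, 81.0 and 85.7 CPM on PVA. It was lower on PEDOT in every pair, by the most in pair 2, and the scaffolds overlapped through replicate 1. The paired log2 difference of PPARD was -0.14 ± 0.07 (SE, adjusted p 0.604 by edgeR). PPARA and PPARD thus had paired values of opposite sign that did not pass.

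ESRRA (chromosome 11, 64305497 to 64316743, + strand), the estrogen-related receptor most closely tied to PGC-1alpha, was at 54.8, 63.5 and 56.9 CPM on PEDOT, against 41.0, 58.8 and 57.4 CPM on PVA. PVA replicate 1 stood apart as the lowest sum, and both of its libraries, at 37.9 and 44.7 CPM, were below the other 10. The paired log2 difference of ESRRA was 0.17 ± 0.08 (SE, adjusted p 0.604 by edgeR) and came mostly from pair 1, at 0.42, while pairs 2 and 3 gave 0.11 and -0.01. Without PVA replicate 1 the unpaired value, 0.16 over all sums, was 0.006. ESRRG (chromosome 1, 216503246 to 217137755, - strand), the isotype enriched in heart and other oxidative tissues, was at 79.8, 102.59 and 94.8 CPM on PEDOT, against 79.65, 107.62 and 90.0 CPM on PVA. Same-numbered sums were nearly equal, and the paired log2 difference of 0.0028 ± 0.06 (SE, adjusted p 0.997 by edgeR) was the nearest to 0 among the 10. The exons of ESRRA share 284 bases with TRMT112 on the other strand, and counting was by strand.

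RXRA (chromosome 9, 134317098 to 134440585, + strand) was at 55.7, 75.1 and 65.3 CPM on PEDOT, against 62.4, 74.5 and 63.8 CPM on PVA. Its paired log2 difference was -0.04 ± 0.07 (SE, adjusted p 0.935 by edgeR), with pair 1 below 0 and the other pairs above it. THRA (chromosome 17, 40058290 to 40093867, + strand), the main thyroid hormone receptor gene of the heart, was at 113, 119 and 121 CPM on PEDOT, against 112, 142 and 116 CPM on PVA. The 3 PEDOT sums and PVA replicates 1 and 3 lay at 112 to 121 CPM, and PVA replicate 2 was above the rest. THRA had a paired log2 difference of -0.06 ± 0.07 (SE, adjusted p 0.908 by edgeR), and 263 bases of its exons lie opposite those of NR1D1. The gene also encodes a form that does not bind hormone, and counts per gene name do not separate the forms.

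THRB (chromosome 3, 24117153 to 24495756, - strand), which encodes the other thyroid hormone receptor, was at 28.3, 42.6 and 43.6 CPM on PEDOT, against 28.001, 49.7 and 40.8 CPM on PVA. Replicate 1 was low on both scaffolds, and the paired log2 difference was -0.04 ± 0.08 (SE, adjusted p 0.951 by edgeR). NR3C1 (chromosome 5, 143277931 to 143435512, - strand), the glucocorticoid receptor gene, was at 147, 109 and 138 CPM on PEDOT, against 131, 116 and 129.55 CPM on PVA. Replicate 2 was lowest on both scaffolds. NR3C1 had a paired log2 difference of 0.06 ± 0.07 (SE, adjusted p 0.904 by edgeR), and its pairs differed in sign.

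**Figure D3:**
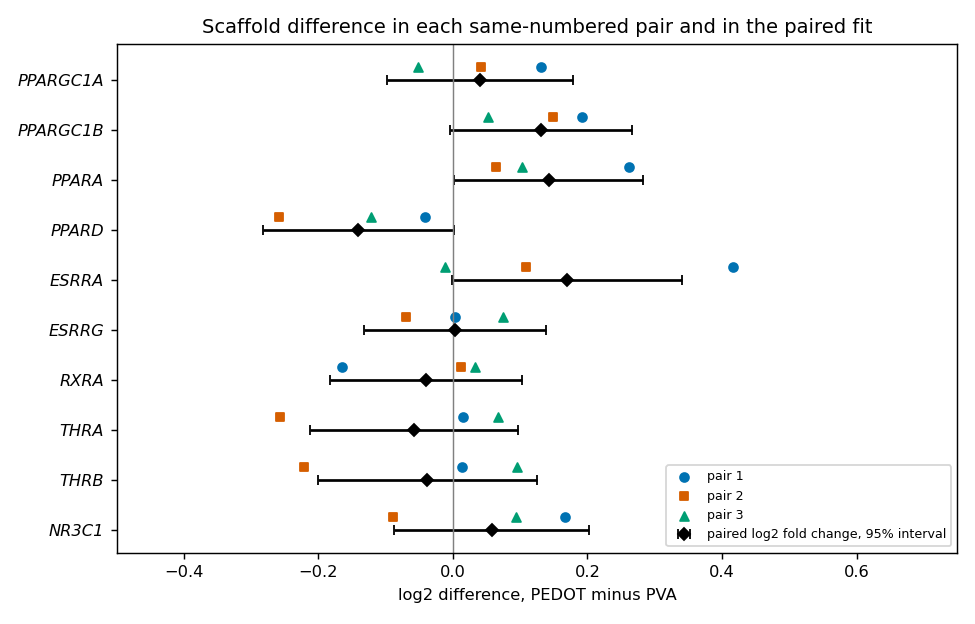
Log2 difference (PEDOT minus PVA) of each gene, with coloured marks for the 3 same-numbered pairs and black diamonds with bars for the paired edgeR value and its 95% interval. PPARGC1B, PPARA and PPARD have pairs on 1 side of 0, and the widest spread of pairs belongs to ESRRA, from -0.01 to 0.42.

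The balance between paralogues was read as a share of their summed counts per kilobase, which does not depend on library scaling. PPARGC1A made up 55.2, 54.55 and 55.9% of PPARGC1A and PPARGC1B in PEDOT replicates 1, 2 and 3, against 56.25, 56.4 and 57.7% in PVA replicates 1, 2 and 3. All PEDOT shares were below all PVA shares, but by only 1.55 points on average, and single libraries ran from 53.9 to 58.8%. The two-sided exact permutation test gave p = 0.1 (n = 3), the smallest p that 3 sums against 3 can give, and 0.4 adjusted over the 4 shares. PPARD made up 72.5 ± 3.59% of PPARD and PPARA on PEDOT and 76.2 ± 3.14% on PVA (SD), lower on PEDOT in 3 of 3 pairs (exact permutation p = 0.3, n = 3, adjusted 0.4). ESRRG made up 30.95 ± 1.49% of ESRRG and ESRRA on PEDOT and 33.5 ± 2.43% on PVA (exact permutation p = 0.3, n = 3, adjusted 0.4). THRB made up 16.9 ± 2.83% of THRB and THRA on PEDOT and 16.7 ± 2.63% on PVA (exact permutation p = 0.6, n = 3, adjusted 0.6). In the THRB share the replicate numbers stood apart: it was 13.7% in replicate 1 on both scaffolds and 18.15 to 18.6% in the other sums.

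The replicate number, which both scaffolds share in the labels, took more of the variance than the scaffold in 9 of the 10 genes, and nearly as much in PPARA. It has more levels than the scaffold, so it tends to take the larger share even where neither matters. How many of all genes had the larger share there was not counted. With the scaffold in the model, 6 of the 10 passed edgeR's test on the replicate number, beside 31.8% of all genes tested and 40.8% of the 11791 tested genes that average at least 5 CPM, as all 10 do. THRB, ESRRG, ESRRA and RXRA were lowest in replicate 1, and PPARD and NR3C1 were lowest in replicate 2. Whether a number stands for a culture or day common to both scaffolds is not in the labels. Same-numbered sums deviated together from their scaffold means, and since that pairing was read from the same counts, the calls describe these samples. The replicate number took 96.8% of the variance in log2 CPM of ESRRG over the 6 sums, 95.2% of that of THRB and 42.3% of that of PPARA, the lowest, beside a median of 70.4% over all genes tested. The scaffold took 42.4% in PPARA, 37.1% in PPARGC1B and under 20% in each of the other 8 genes, beside a median of 6.1% over all genes tested.

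THRB differed most. It was higher by 0.71 ± 0.09 (log2, SE) in replicate 2 and by 0.59 ± 0.09 in replicate 3 than in replicate 1 (edgeR adjusted p 1.06e-04 for the replicate number). ESRRG was higher by 0.40 ± 0.08 in replicate 2 and by 0.21 ± 0.08 in replicate 3 than in replicate 1 (edgeR adjusted p 0.00383). Both calls stood in 27 of 27 settings of the test on the replicate number. ESRRA was higher by 0.36 ± 0.10 and 0.27 ± 0.10 in replicates 2 and 3 than in replicate 1 (edgeR adjusted p 0.0273). RXRA was higher by 0.34 ± 0.08 in replicate 2 than in replicate 1 and by 0.13 ± 0.08 in replicate 3 (edgeR adjusted p 0.0138). In the opposite sense, PPARD was at -0.34 ± 0.08 in replicate 2 and at -0.19 ± 0.08 in replicate 3 relative to replicate 1 (edgeR adjusted p 0.0156). NR3C1 was at -0.30 ± 0.08 in replicate 2 and at -0.05 ± 0.08 in replicate 3 relative to replicate 1 (edgeR adjusted p 0.0247). The calls of RXRA, PPARD, NR3C1 and ESRRA stood in 24, 23, 23 and 20 of the 27 settings. Without PEDOT replicate 2 only THRB, ESRRG and THRA passed, and only THRB, ESRRG and PPARD did when just the higher-numbered technical libraries were kept.

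PPARGC1A (edgeR adjusted p 0.126), PPARGC1B (0.155), PPARA (0.245) and THRA (0.181) did not pass on the replicate number. Their replicate 2 sums were nevertheless above their replicate 1 sums on both scaffolds, at fitted log2 differences of 0.18 ± 0.08, 0.19 ± 0.08, 0.17 ± 0.08 and 0.21 ± 0.09 (SE).

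**Figure D4:**
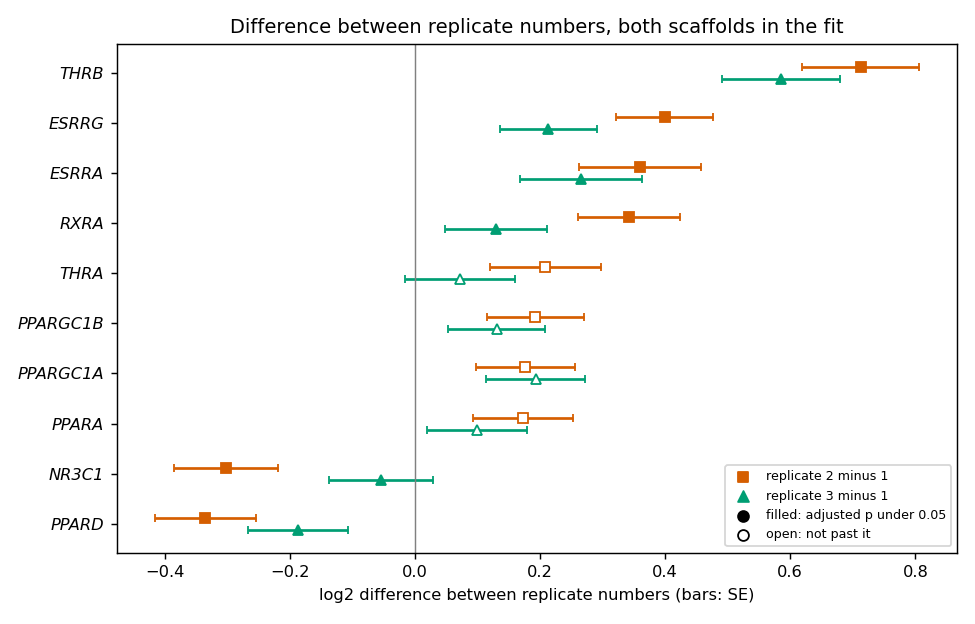
Log2 difference of replicate 2 (orange squares) and replicate 3 (green triangles) from replicate 1 in the fit with both scaffolds, with bars for the SE and filled marks for genes with an adjusted p under 0.05 on the replicate number. THRB lies farthest right, at 0.71 and 0.59, and PPARD and NR3C1 lie left of 0.

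Markers of some other cell types moved with the replicate number too. Summed fibroblast markers were at 5174, 645.5 and 2775 CPM in PEDOT replicates 1, 2 and 3, against 2836, 622.6 and 2481 CPM in PVA replicates 1, 2 and 3. COL1A1 (1657 CPM on PEDOT and 1112 CPM on PVA on average) and COL3A1 (1113 CPM on PEDOT and 794 CPM on PVA) made up most of that sum. All 8 fibroblast markers were called on the replicate number, beside 31.8% of all genes, and 7 were lowest in replicate 2, whereas POSTN was highest there, by 1.55 (log2) over replicate 1. Smooth muscle and pericyte markers were at 1866, 1016 and 1406 CPM on PEDOT, against 2218, 1296 and 1980 CPM on PVA. The 6 genes went both ways in the paired fit. TAGLN and CNN1 were at -0.30 and -0.12 (log2) and MYH11 and PDGFRB at 0.15 and 0.26, none of them called. ACTA2 and RGS5, 2 of the 6, were called lower on PEDOT in that fit, which called 0.268% of all genes (edgeR adjusted p 0.0334 and 0.00795). So was the neural marker GAP43 (0.0444). These 3 calls were lost with upper-quartile factors, at adjusted p of 0.0798, 0.0581 and 0.182. Summed cardiomyocyte markers were at 66980, 88490 and 82750 CPM on PEDOT, against 58930, 76300 and 79230 CPM on PVA, lowest in replicate 1 on both scaffolds as THRB, ESRRG, ESRRA and RXRA were. TTN (48958 CPM on PEDOT and 41656 CPM on PVA on average) and MYH6 (18356 CPM on PEDOT and 18623 CPM on PVA) made up most of it. Of the 9 cardiomyocyte markers 7 were called on the replicate number and 7 were lowest in replicate 1, while TNNT2 was lowest in replicate 3, at -0.14 from replicate 1, and PLN, which was not called, in replicate 2. Summed epicardial markers, at 79.85, 33.9 and 52.4 CPM on PEDOT, against 75.1, 30.5 and 51.9 CPM on PVA, had the order of the fibroblast sum. WT1 (41.7 CPM on PEDOT and 41.4 CPM on PVA on average) made up most of it. TBX18 was instead highest in replicate 3, by 0.41 (log2) over replicate 1, and UPK3B, which was not called, was lowest there. Summed endothelial markers were at 13.1 to 16.99 CPM on PEDOT and 17.8 to 22.6 CPM on PVA, so the scaffolds did not overlap. KDR (13.4 CPM on PEDOT and 18.1 CPM on PVA on average) made up most of it and was itself separated, as 4.6% of all genes were. It was not called in the paired fit (-0.42 ± 0.11, log2, SE, edgeR adjusted p 0.184), and PECAM1 and TEK were at 0.52 and 0.35 there. Of the 6 endothelial markers 1 was called on the replicate number. Endoderm and neural markers reached at most 14.8 and 16.3 CPM on PEDOT and 14.6 and 25.9 CPM on PVA. Proliferation markers were at 75.9, 117 and 224 CPM on PEDOT, against 180.2, 141 and 203 CPM on PVA. The part of these cell types in the differences of the 10 genes was not tested, and in bulk RNA fewer cells of a type and less RNA per cell cannot be told apart.

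**Figure D5:**
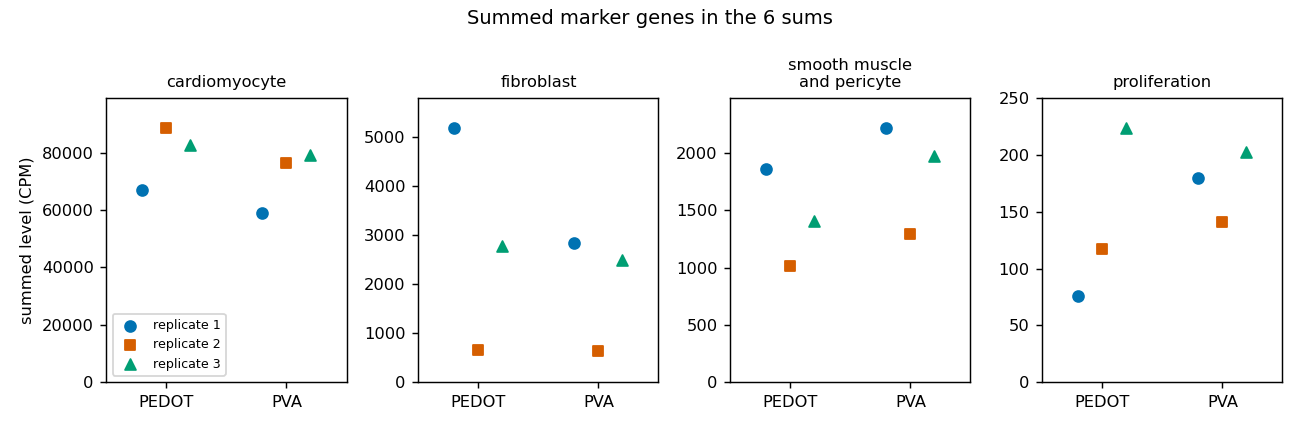
Summed level (CPM, linear axis from 0) of fixed marker genes in the 6 sums, PEDOT left of PVA, with colours and shapes for the replicate number. The fibroblast sum, mostly COL1A1 and COL3A1, is lowest in replicate 2, at 645.5 CPM on PEDOT and 622.6 CPM on PVA, and the cardiomyocyte sum, mostly TTN and MYH6, is lowest in replicate 1.

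The genes whose centred log2 levels lay nearest over the 12 libraries to those of THRB, ESRRA and PPARD, the members of widest range over the 6 sums, were listed among 11273 genes, with libraries of a replicate not independent. Nearest to THRB were NCOA4, a coactivator and ferritin receptor, at a root mean square difference of 0.08 log2 units, ACSL1, the main long-chain acyl-CoA synthetase of the heart, at 0.09, and the noncoding ARHGAP5-AS1 at 0.09. The median gene was at 0.33 from THRB. Nearest to ESRRA were MGST3, a microsomal glutathione transferase, TMEM129 and PTDSS2, a phosphatidylserine synthase, at 0.07 each, with a median of 0.25. Nearest to PPARD were CST3, which encodes the protease inhibitor cystatin C, at 0.05, LIX1L at 0.06 and PACS1, a sorting protein, at 0.06, with a median of 0.24.

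The other members of these receptor families did not pass on the scaffold either, with 0 of 6 called in both fits and a paired median log2 fold change of -0.07. PPRC1, the third PGC-1 family coactivator, averaged 46.0 ± 7.68 CPM on PEDOT and 47.9 ± 2.03 CPM on PVA, and RXRB 45.05 ± 4.49 CPM on PEDOT and 47.8 ± 9.11 CPM on PVA (SD, n = 3). PPARG, the adipocyte isotype, was low, at 5.17 ± 2.34 CPM on PEDOT and 5.73 ± 2.27 CPM on PVA, as was ESRRB, at 6.35 ± 1.25 CPM on PEDOT and 5.50 ± 2.20 CPM on PVA (SD, n = 3). PPARG was higher by 1.28 (log2) in replicate 2 than in replicate 1, and 5 of the 6 were called on the replicate number, beside 31.8% of all genes and 40.8% of those averaging at least 5 CPM. Of 18 coregulators 0 were called in either scaffold fit (paired median -0.01), and the corepressors NRIP1 and NCOR1 were at paired log2 fold changes of 0.03 ± 0.07 and -0.02 ± 0.06 (SE). The coactivator NCOA1 was at -0.04 ± 0.07. Of the 18 coregulators, 7 were called on the replicate number, or 38.9%, near the 31.8% of all genes and 40.8% of those averaging at least 5 CPM.

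Genes known as PPAR targets held 0 calls among 22 in both scaffold fits, with a paired median log2 fold change of -0.02. PDK4, the kinase that blocks glucose oxidation, averaged 69.5 ± 30.6 CPM on PEDOT and 79.95 ± 39.9 CPM on PVA, and the lipid droplet gene PLIN2 72.1 ± 20.2 CPM on PEDOT and 74.7 ± 30.2 CPM on PVA (SD, n = 3). Both varied more between replicates than between scaffolds: PDK4 was higher by 1.10 (log2) and PLIN2 by 0.81 in replicate 3 than in replicate 1. ANGPTL4, a lipoprotein lipase inhibitor, was at a paired log2 difference of 0.18 ± 0.17 (SE). CPT1B, the muscle carnitine palmitoyltransferase, was at 1.21 ± 0.416 CPM on PEDOT and 1.17 ± 0.360 CPM on PVA, a level that understates it, since 66.4% of its exon bases are shared with CHKB-CPT1B and such reads were left out. Of the PPAR targets, 13 of 22 were called on the replicate number, beside 31.8% of all genes and 40.8% of those averaging at least 5 CPM. Genes driven by estrogen-related receptors and PGC-1 also held 0 calls among 22 on the scaffold (paired median 0.03), and 16 of 22 were called on the replicate number, beside the same 31.8% and 40.8%. CYCS, which encodes cytochrome c, was at a paired log2 difference of 0.10 ± 0.09 (SE), TFAM, the mitochondrial transcription factor, at -0.03 ± 0.08, IDH3A, a subunit of isocitrate dehydrogenase, at 0.07 ± 0.08 and ATP5F1B, the ATP synthase beta subunit, at -0.02 ± 0.08. ATP5F1B was higher by 0.41 in replicate 2 and by 0.42 in replicate 3 than in replicate 1.

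Of 11 tested thyroid hormone responsive genes, 0 were called without the block and 1, MYH7, was called higher on PEDOT with it (paired median 0.09). The fit with the block called 57 of all genes, or 0.268%, 15 of them higher on PEDOT. MYH6, of the same list, was not called, at a paired log2 difference of -0.02 ± 0.08 (SE). MYH7, the slow beta myosin that thyroid hormone represses, averaged 1130.3 ± 402.2 CPM on PEDOT and 614.03 ± 355.58 CPM on PVA (SD, n = 3), a paired log2 difference of 0.95 ± 0.17 (SE, adjusted p 0.038 by edgeR). Its pair differences were 1.71, 0.86 and 0.30, largest in pair 1. The call was made in 5 of 10 settings of the paired fit, and the adjusted p was 0.205 with upper-quartile factors, 0.283 among genes averaging at least 5 CPM, 1 by DESeq2 and 0.312 without pair 2. KLF9, a factor that both thyroid hormone and glucocorticoids induce, was at 0.09 ± 0.07, the corepressor gene HR at 0.09 ± 0.07, ATP2A2, the calcium pump gene, at 0.06 ± 0.08 and the pacemaker channel gene HCN2 at 0.08 ± 0.09. None of these 4 passed, and KLF9 and HR did not pass on the replicate number (edgeR adjusted p 0.964 and 0.333), while ATP2A2 (0.0039) and HCN2 (3.57e-06) did. Among genes of hormone transport and metabolism, 0 of 6 tested were called in either scaffold fit, at a paired median of -0.14. SLC16A10, a transporter of thyroid hormone and aromatic amino acids, averaged 7.64 ± 0.850 CPM on PEDOT and 5.70 ± 0.903 CPM on PVA (SD, n = 3), the 3 PEDOT sums above the 3 PVA sums, at a paired log2 difference of 0.43 ± 0.12 (SE, adjusted p 0.217 by edgeR). SLC7A8, an amino acid and hormone transporter, was at -0.42 ± 0.10 (SE, adjusted p 0.136 by edgeR) and SLC7A5, of the same family, at -0.03 ± 0.10 (0.972). The deiodinase genes DIO1 and DIO2 and the hormone-binding CRYM were too low to be tested.

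Of 16 glucocorticoid responsive genes 0 were called in either scaffold fit (paired median -0.005). FKBP5, the chaperone that feeds back on the glucocorticoid receptor, averaged 37.9 ± 11.8 CPM on PEDOT and 38.3 ± 10.8 CPM on PVA, and TSC22D3, which encodes the anti-inflammatory protein GILZ, 86.3 ± 3.28 CPM on PEDOT and 83.4 ± 8.10 CPM on PVA (SD, n = 3). FKBP5 was at -0.70 ± 0.09 (log2, SE) in replicate 2 and at -0.68 ± 0.09 in replicate 3 relative to replicate 1, while NR3C1 was at -0.30 and -0.05. Whether FKBP5 follows NR3C1 was not tested. The clock gene PER1 was at a paired log2 difference of 0.11 ± 0.07 (SE), and ZBTB16, a zinc finger factor, at 0.23 ± 0.10 with the 3 PEDOT sums above the 3 PVA sums (edgeR adjusted p 0.595). Of the 9 genes that fold the receptor or convert its ligands, 0 were called in either scaffold fit (paired median -0.10). HSP90AA1 and HSP90AB1, the chaperones that hold the receptor ready for ligand, were at paired log2 fold changes of -0.14 ± 0.08 and -0.14 ± 0.08, and the cochaperones FKBP4 and PTGES3 at -0.11 ± 0.06 and -0.05 ± 0.07. Across the 8 lists, paired medians lay between -0.14 and 0.09, beside -0.004 for all genes tested.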

How the data were processed

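The authors deposited a table of raw read-pair counts by gene name for 12 libraries, made with featureCounts 2.0.1 (paired end, reversely stranded) on GENCODE 33, per the file headers. Multi-mapping reads and those shared between genes went uncounted, since that command sets no option to keep them. The submitters' processing notes name FastQC, STAR, DESeq2, edgeR and hg38; the aligner's version is not given in the sources used here. Technical libraries were summed per biological replicate. Genes were kept with filterByExpr (minimum count 10, minimum total 15), given TMM factors and tested two-sided with the quasi-likelihood functions of edgeR 4.0.16 in R 4.3.3, with Benjamini-Hochberg adjustment over 21298 genes and a threshold of 0.05. The scaffold was the only term, and an alternative added the replicate number as a block, which also gave the test on the replicate number. The SE was taken as the fold change, in log2, over the root of its F statistic. Log2 CPM used a prior count of 2. RPKM was computed from CPM and the exon lengths in the table.

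The numbers pair the samples by the values: deviations of same-numbered sums correlated at 0.678, 0.703 and 0.503 over genes, and those of other sums at -0.609 to -0.005. Deviations were taken from the mean of each scaffold, so positive values for same-numbered sums force negative ones, on average, for the others. DESeq2 1.42.0 and limma 3.58.1 (voom) were alternatives, with other scalings, filters and left-out libraries. The fit with the replicate block was tested on simulated data, and the fit without it was not. The 10 genes and the lists were chosen with earlier results of these data known. Named beside the 10 genes are the first 4 genes of each list, list members past the threshold, and the 3 genes nearest in pattern to the 3 members of widest range; some of these are not reported here. Other names were chosen after their values were seen, among them CHKB-CPT1B, CD68, ACTA2, RGS5, GAP43 and the single markers of fibroblasts, smooth muscle and pericytes, endothelium, epicardium and cardiomyocytes.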

Additional observations from a re-analysis of the deposited data

How the results depend on the processing

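No setting called any of the 10 genes on the scaffold, in 36 alternatives. The number of all genes called, 0 without the block, was 57 with the replicate block. With the block it was 96 by DESeq2, 67 by limma-voom, 1 with upper-quartile factors, 37 with library size only, 389 with every gene with a count and 1 for genes averaging at least 5 CPM, and 170, 22 or 284 without pair 1, 2 or 3. Without the block it stayed at 0 in every setting run, those that left out a replicate or library included. With the block 1 thyroid hormone responsive gene (MYH7), 2 smooth muscle and pericyte markers (ACTA2, RGS5) and 1 neural marker (GAP43) were called. Over 10 blocked settings MYH7 was called in 5, ACTA2 in 6, RGS5 in 7 and GAP43 in 4; none of them was called with upper-quartile factors, for genes averaging at least 5 CPM (where GAP43 was not tested) or without pair 2. The replicate block moved no call of the 10 genes.

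Signs near 0 turned. ESRRG, at -0.0005, was at 0.0028 with the block, 0.0036 with DESeq2 and the block, 0.0024 with limma-voom and 0.0027 with it and the block, 0.018 with upper-quartile factors and 0.017 with the block. It was 0.0015 with every gene with a count and 0.0058 with the block, 0.019 for genes averaging at least 5 CPM and 0.020 with the block, and 0.0018 or 0.032 with the lower- or higher-numbered technical libraries alone. PPARGC1A was at -0.0024 with the lower-numbered libraries and RXRA at 0.034 with the higher-numbered ones. Without 1 library, ESRRG was at 0.0093 (PEDOT replicate 1 library 3), 0.00020 (PEDOT replicate 2 library 2), 0.029 (PVA replicate 1 library 2), 0.034 (PVA replicate 2 library 3) and 0.010 (PVA replicate 3 library 1), RXRA at 0.00089 (PVA replicate 2 library 2), and the THRB share at -0.0707 (PEDOT replicate 1 library 2) and -0.140 points (PVA replicate 1 library 3). In the blocked fit without pair 1, PPARGC1A was at -0.0036, ESRRG at 0.0047 and RXRA at 0.024, and without pair 2 ESRRG was at 0.039, THRA at 0.041 and THRB at 0.055. As replicates were left out, ESRRG ran from -0.098 to 0.13, NR3C1 from -0.020 to 0.18, PPARGC1A from -0.044 to 0.094, RXRA from -0.15 to 0.072, THRA from -0.13 to 0.052, THRB from -0.25 to 0.15 and the THRB share from -1.30 to 1.85 points. The cause was not tested. The share differences of PPARGC1A (-1.91 to -1.10 points), PPARD (-5.475 to -1.89) and ESRRG (-3.91 to -1.32) kept their sign as replicates or libraries were left out.

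On the replicate number, 3 of the 10 genes passed with the higher-numbered technical libraries alone and 3 to 6 as replicates or libraries were left out, with 4538 to 7300 of all genes. For the 10 genes the lowest count came without PEDOT replicate 2. Leaving out a single library gave no scaffold call in the fit without the block. The scaffold calls of the blocked fit were not rerun without single libraries. With 3 sums a scaffold the shares cannot reach p under 0.1.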

Other observations

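Some list members outside the naming rule had an unadjusted p under 0.05 in the paired fit and were picked after their values were seen, and none passed over all genes. CD36, the fatty acid translocase and a PPAR target, averaged 145 ± 21.9 CPM on PEDOT and 114 ± 37.8 CPM on PVA (SD, n = 3), higher in 3 of 3 pairs (paired log2 fold change 0.40 ± 0.09, SE, edgeR adjusted p 0.124). PRKAA2, the AMPK catalytic subunit of muscle, averaged 120.3 ± 5.51 CPM on PEDOT and 106 ± 7.73 CPM on PVA (0.19 ± 0.06, edgeR adjusted p 0.378). RXRG, the muscle-enriched retinoid X receptor, averaged 46.8 ± 11.4 CPM on PEDOT and 54.6 ± 16.2 CPM on PVA and was lower in 3 of 3 pairs (-0.21 ± 0.07, edgeR adjusted p 0.362). HIF3A, a glucocorticoid-induced gene, averaged 119 ± 11.1 CPM on PEDOT and 103 ± 6.34 CPM on PVA (0.20 ± 0.06, edgeR adjusted p 0.331). Other glucocorticoid responsive genes were lower on PEDOT at an unadjusted p under 0.05: MT1X, a metallothionein, was at -0.78 ± 0.26 (edgeR adjusted p 0.371), the kinase gene SGK1 at -0.21 ± 0.08 (0.437) and NFKBIA, an inhibitor of NF-kappaB, at -0.18 ± 0.08 (0.574).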
